A study of Homo sapiens with 6 samples.

Results

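In RC4-2B, the cabazitaxel (CBZ)-resistant subclone of the C4-2B prostate cancer cell line, 23 protein-coding genes had almost no RNAseq reads although parental C4-2B had reads of each. The genes were chosen by raw read count, as protein-coding genes with 3 counts or less in each of the 3 RC4-2B libraries, a mean of 10 counts or more in C4-2B and at least 4 counts in each C4-2B library. They are 23 of the 12399 protein-coding genes that met the C4-2B limits, or 0.185%, and of the 58735 genes in the deposited table. Because the genes were selected on this contrast, their counts and ratios are a description and carry no test. NOVA1 and CBLN2 were left out of the selection.

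C4-2B is an established castration resistant prostate cancer (CRPC) line, and RC4-2B was derived from it by repeated CBZ exposure with doses raised from 0.1 nM to 20 nM over 4 months. Libraries came from 3 biological replicates of each line after 72 h of culture. The labels name 10% fetal bovine serum, and the methods also name charcoal-stripped serum. RC4-2B is 1 subclone, so acquired resistance and the descent from single cells cannot be told apart, and in bulk RNA fewer cells with a transcript and less transcript per cell cannot be told apart either.

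A gene can lose its transcripts when its promoter is methylated at CpG dinucleotides, when Polycomb complexes mark its chromatin, when the transcription factors that drove it are lost, or when its DNA is deleted. Genes that are read at a very low level can also fall under the reach of sequencing without any of these events. RNA counts alone do not separate them, and neither DNA nor chromatin was measured in these libraries.

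The libraries held 15707134 to 18052517 counts on genes, so 3 counts corresponded to 0.170 to 0.188 CPM (counts scaled by TMM to a common library size). Between pairs of C4-2B libraries the SD of the log2 differences over genes was 0.12 to 0.19. RC4-2B replicates 1 and 3 differed by an SD of 0.21, whereas replicate 2 stood apart, with 0.59 against replicate 1 and 0.51 against replicate 3. Luminal prostate markers were read in both lines, and all 14 found were tested, while ACP3 was not found under that symbol. Their summed levels were 5307 to 5435 CPM over the C4-2B libraries and 4004 to 4647 CPM over those of RC4-2B. Of the 14, 2 were lower in RC4-2B, KLK3 (edgeR adjusted p = 0.000154) and TMPRSS2 (0.019), against 0.903% of all tested genes. At an unadjusted p under 0.05, 4 were lower and 1 higher (against 9.42% and 12%). DESeq2 called 3 lower and 0 higher (against 2.64% and 3.28%). The call of TMPRSS2 was lost without any C4-2B library (edgeR adjusted p of 0.0816 to 0.119) and without RC4-2B replicate 3 (0.0538). The basal markers KRT5 and TP63, the fibroblast markers COL1A2, DCN and LUM, and the endothelial marker PECAM1 were at 0 in all 6 libraries, and leukocyte markers (PTPRC, CD14, CD3E) did not exceed 3 counts. Other genes of the same lists were read, with 355 to 585 counts over the 6 libraries for COL1A1, 37 to 52 for PDGFRB and 4 to 17 for KRT14. VWF had 125, 132 and 143 counts in C4-2B against 81, 73 and 62 in RC4-2B (log2 fold change -0.84, edgeR adjusted p = 0.065), and DESeq2 called it lower. The part of these markers in the counts of the 23 genes was not tested.

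The promoters of 5 of the genes are shown here, chosen because their RefSeq start lies at the start of the gene in the deposited table or less than 100 bases upstream of it. Each line gives the 250 bases before the RefSeq transcription start in GRCh38.p14, 5′ to 3′ on the gene's strand, with CpG dinucleotides in capitals. PCDH7 lies on the plus strand (chr4:30720119-30720368), as do FOXF2 (chr6:1389326-1389575), ZNF711 (chrX:85243741-85243990) and CYP4F8 (chr19:15614968-15615217), and GAL3ST1 lies on the minus strand (chr22:30574666-30574915).
CYP4F8: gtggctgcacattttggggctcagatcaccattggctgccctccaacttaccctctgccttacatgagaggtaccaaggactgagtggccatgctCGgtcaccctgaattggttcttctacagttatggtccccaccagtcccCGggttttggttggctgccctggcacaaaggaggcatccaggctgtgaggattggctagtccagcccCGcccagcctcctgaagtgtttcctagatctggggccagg
PCDH7: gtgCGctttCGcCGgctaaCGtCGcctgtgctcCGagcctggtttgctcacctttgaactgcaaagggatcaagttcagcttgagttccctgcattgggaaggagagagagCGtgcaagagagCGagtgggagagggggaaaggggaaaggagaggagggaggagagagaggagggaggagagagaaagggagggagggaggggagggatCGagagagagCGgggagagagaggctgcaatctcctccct
FOXF2: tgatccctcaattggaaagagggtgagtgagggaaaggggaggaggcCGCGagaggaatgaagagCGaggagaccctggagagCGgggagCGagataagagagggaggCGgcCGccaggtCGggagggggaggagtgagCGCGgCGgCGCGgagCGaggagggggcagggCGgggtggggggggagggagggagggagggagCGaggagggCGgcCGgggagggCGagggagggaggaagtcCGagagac
ZNF711: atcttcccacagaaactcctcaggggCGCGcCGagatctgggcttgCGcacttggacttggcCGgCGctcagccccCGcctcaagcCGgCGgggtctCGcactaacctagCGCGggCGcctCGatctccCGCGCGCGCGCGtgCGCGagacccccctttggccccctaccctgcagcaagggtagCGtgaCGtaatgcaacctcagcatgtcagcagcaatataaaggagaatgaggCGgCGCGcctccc
GAL3ST1: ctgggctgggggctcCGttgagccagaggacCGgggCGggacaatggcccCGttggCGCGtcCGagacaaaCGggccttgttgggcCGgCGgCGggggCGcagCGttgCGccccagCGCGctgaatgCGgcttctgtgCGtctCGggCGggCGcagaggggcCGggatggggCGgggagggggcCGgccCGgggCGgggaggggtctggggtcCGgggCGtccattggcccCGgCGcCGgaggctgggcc
The sequences let the differences in CpG content described below be seen, and hold 3 CpGs in CYP4F8, 10 in PCDH7, 20 in FOXF2, 27 in ZNF711 and 31 in GAL3ST1. The level of methylation at these CpGs was not measured.

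Most of the 23 genes were low in C4-2B to begin with. Their median C4-2B mean was 17 counts, against 568 for all protein-coding genes that met the C4-2B limits, and the median of their C4-2B mean FPKM, a level per gene length, was 0.210 against 5.39. HBM (1.81 FPKM) and PCDH7 (1.15 FPKM) were the 2 genes with a C4-2B mean of 1 FPKM or more, and the highest FPKM of any of the 23 genes in an RC4-2B library was 0.122. By C4-2B mean count, 14 genes were at 10 to under 20 counts (2.11% of 662 protein-coding genes at that level), 8 at 20 to under 50 (0.918% of 871), 0 of 805 at 50 to under 100, and 1, PCDH7, among 10061 at 100 or more. With so few reads, the limit of 3 counts lay close to the C4-2B level for many of the genes. Against a floor of 3 counts per RC4-2B library, the C4-2B level was higher by a median of 5.50-fold, with a range of 3.24-fold to 87.8-fold.

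Summed over the 23 genes, C4-2B replicates 1 to 3 had 602, 689 and 796 counts and RC4-2B replicates 1 to 3 had 30, 19 and 27. PCDH7 alone held 39.2% of the C4-2B sum. Without it, the other 22 genes had 416 to 432 counts in each C4-2B library and 29, 18 and 26 in those of RC4-2B, so the C4-2B libraries were then close to one another. The highest count in an RC4-2B library was 0 for 2 genes, 1 for 8 genes, 2 for 2 genes and 3 for 11 genes. RC4-2B replicate 2 had 0 counts for 13 genes, replicate 1 for 8 and replicate 3 for 6.

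**Figure D1:**
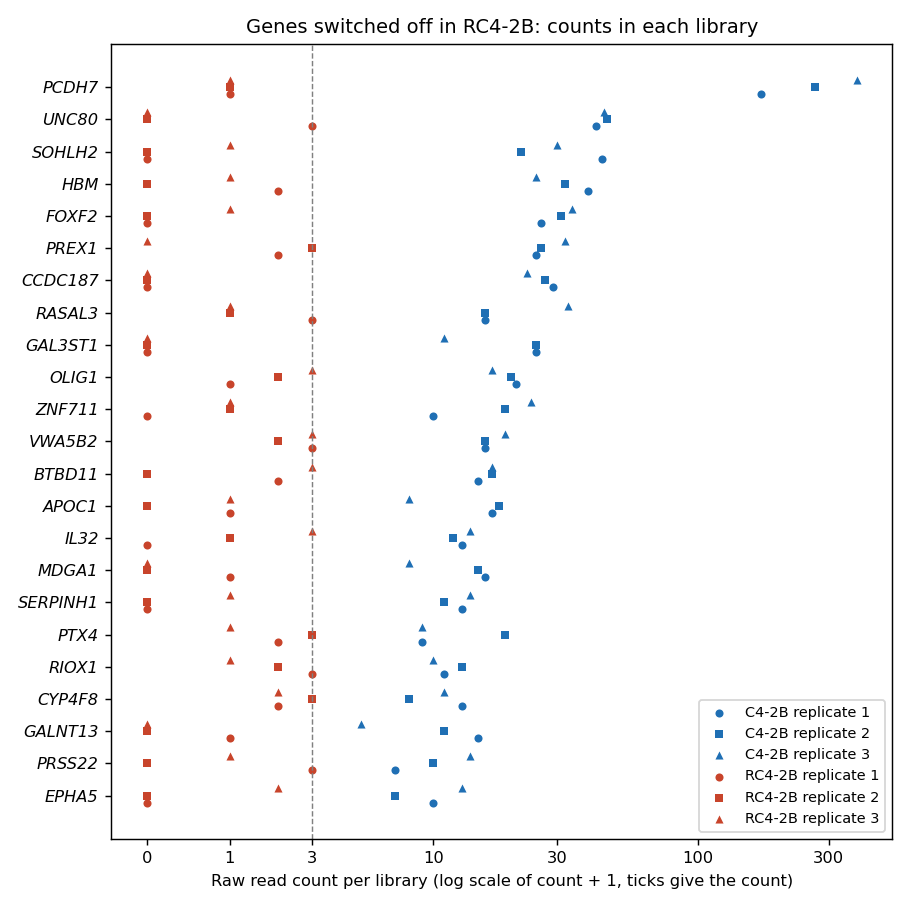
Raw read counts of the 23 genes in each of the 3 C4-2B libraries (blue) and 3 RC4-2B libraries (red), on a log scale of count + 1, ordered by C4-2B mean. The dashed line is the limit of 3 counts that chose the genes. PCDH7 stands to the right of the others at 170 to 380 counts in C4-2B, and the lowest rows lie at 5 to 15 counts, close to the limit.

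Genes of the cell surface and the synapse made up 5 of the 23. PCDH7 (ENSG00000169851, chr4:30720415-31146805), a delta-protocadherin that mediates contacts between cells, had 170, 268 and 380 counts in C4-2B replicates 1 to 3, or 15.6 ± 5.76 CPM (SD, n = 3), and 1 count in each RC4-2B library. It was the most abundant of the genes by count, its C4-2B libraries spread over a factor of 2.13, and no RC4-2B library came near them. Its summed level was 265-fold lower in RC4-2B, with an exact 95% counting interval of 90.4 to 1288. This interval and those that follow pool the libraries of a line and cover counting error only. They come from the counts that chose the genes, so lower bounds above 1 followed from the limits and are no test.

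UNC80 (ENSG00000144406, chr2:209771993-209999300), a subunit of the NALCN sodium leak channel of neurons, had 42, 46 and 45 counts in C4-2B against 3, 0 and 0 in RC4-2B, a ratio of 43.1 with an interval of 14.4 to 212. Its C4-2B libraries were nearly equal, at 2.56 ± 0.049 CPM, and RC4-2B replicate 1 held all of the RC4-2B reads. BTBD11 (ENSG00000151136, chr12:107318413-107659642), an ankyrin repeat and BTB domain protein of synapses, had 15, 17 and 17 counts in C4-2B against 2, 0 and 3 in RC4-2B, 9.53-fold lower with an interval of 3.82 to 30.6. MDGA1 (ENSG00000112139, chr6:37630679-37699306), a membrane-anchored protein that binds neuroligins, had 16, 15 and 8 counts in C4-2B against 1, 0 and 0 in RC4-2B, with a ratio of 37.9 and an interval of 6.42 to 1536. The single RC4-2B read of MDGA1 makes the upper bound of its ratio very wide. EPHA5 (ENSG00000145242, chr4:65319563-65670495), a receptor tyrosine kinase for ephrin-A ligands that guides axons, sat at the lower C4-2B limit with 10, 7 and 13 counts, and had 0, 0 and 2 in RC4-2B, a ratio of 14.6 with an interval of 3.70 to 126. A pseudogene on the opposite strand, AC115223.1, overlaps EPHA5 and had 186, 169 and 140 counts in C4-2B against 92, 79 and 52 in RC4-2B. Since the treatment of strand in counting is not given in the sources used here, reads of EPHA5 and of AC115223.1 cannot be told apart with certainty.

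Transcription factors made up 4 of the genes (17.4%), and 8.71% of the other protein-coding genes that met the C4-2B limits have a transcription factor family in the deposited annotation. The shares were not matched for C4-2B level. SOHLH2 (ENSG00000120669, chr13:36168208-36214615), a basic helix-loop-helix factor of germ cell development, had 44, 22 and 30 counts in C4-2B against 0, 0 and 1 in RC4-2B, 93.4-fold lower with an interval of 16.4 to 3725. FOXF2 (ENSG00000137273, chr6:1389576-1395603), a forkhead factor of mesenchyme, had 26, 31 and 34 counts in C4-2B against 0, 0 and 1 in RC4-2B, a ratio of 88.5 with an interval of 15.5 to 3533. In both genes a single read in RC4-2B replicate 3 was all that remained. OLIG1 (ENSG00000184221, chr21:33070144-33072420), a factor of oligodendrocyte development, had 21, 20 and 17 counts in C4-2B against 1, 2 and 3 in RC4-2B, a 9.40-fold lower level with an interval of 4.07 to 26.7. Every RC4-2B library kept some OLIG1 reads, unlike FOXF2. ZNF711 (ENSG00000147180, chrX:85244032-85273362), an X-linked zinc finger protein that works with the histone demethylase PHF8, had 10, 19 and 24 counts in C4-2B against 0, 1 and 1 in RC4-2B, with a ratio of 25.8 and an interval of 6.79 to 218.

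The 3 signalling genes act on small GTPases or as a cytokine. PREX1 (ENSG00000124126, chr20:48624252-48827883), an exchange factor that activates Rac, had 25, 26 and 32 counts in C4-2B against 2, 3 and 0 in RC4-2B, a ratio of 16.1 with an interval of 6.65 to 51.0. RASAL3 (ENSG00000105122, chr19:15451624-15464571), a Ras GTPase-activating protein of blood cells, had 16, 16 and 33 counts in C4-2B against 3, 1 and 1 in RC4-2B, a ratio of 12.6 with an interval of 5.15 to 40.2. IL32 (ENSG00000008517, chr16:3065297-3082192), a proinflammatory cytokine, had 13, 12 and 14 counts in C4-2B against 0, 1 and 3 in RC4-2B, 9.48-fold lower with an interval of 3.42 to 36.5. All 3 genes kept a read in at least some RC4-2B libraries, and the RC4-2B libraries with the most reads differed from gene to gene.

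Among the 5 enzymes, GAL3ST1 (ENSG00000128242, chr22:30554635-30574587), the sulfotransferase that makes sulfatide, had 25, 25 and 11 counts in C4-2B and 0 in all 3 RC4-2B libraries. Against 3 counts per library it was at least 6.61-fold lower. GALNT13 (ENSG00000144278, chr2:153871913-154453849), which starts mucin-type O-glycosylation, had 15, 11 and 5 counts in C4-2B against 1, 0 and 0 in RC4-2B, with a ratio of 30.1 and an interval of 5.02 to 1229. These were the enzymes with the fewest RC4-2B reads, and both had their lowest C4-2B count in replicate 3. RIOX1 (ENSG00000170468, chr14:73490964-73493392), a histone demethylase and ribosomal protein hydroxylase, had 11, 13 and 10 counts in C4-2B against 3, 2 and 1 in RC4-2B, 5.51-fold lower with an interval of 2.29 to 16.1. PRSS22 (ENSG00000005001, chr16:2852727-2858170), a serine protease of epithelia, had 7, 10 and 14 counts in C4-2B against 3, 0 and 1 in RC4-2B, a ratio of 7.54 with an interval of 2.66 to 29.4. CYP4F8 (ENSG00000186526, chr19:15615218-15630638), which hydroxylates prostaglandins in the seminal vesicle, had 13, 8 and 11 counts in C4-2B against 2, 3 and 2 in RC4-2B, and its ratio of 4.45 (interval 1.93 to 11.9) was the lowest of the 21 genes that kept reads. For PRSS22 and CYP4F8 the lowest C4-2B library and the highest RC4-2B library were 4 and 5 counts apart.

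Genes of secreted, carrier and chaperone proteins made up 4 of the 23. HBM (ENSG00000206177, chr16:153892-166768), the mu-globin gene of the alpha-globin cluster, had 39, 32 and 25 counts in C4-2B against 2, 0 and 1 in RC4-2B, 31.1-fold lower with an interval of 10.3 to 154. Its span in the deposited table covers HBZ and the pseudogene HBZP1, which had at most 5 counts in any library. APOC1 (ENSG00000130208, chr19:44914247-44919349), an apolipoprotein, had 17, 18 and 8 counts in C4-2B against 1, 0 and 1 in RC4-2B, a ratio of 20.9 with an interval of 5.45 to 178. SERPINH1 (ENSG00000149257, chr11:75562056-75572783), the collagen chaperone of the endoplasmic reticulum also known as HSP47, had 13, 11 and 14 counts in C4-2B against 0, 0 and 1 in RC4-2B, a ratio of 37.0 with an interval of 6.24 to 1497. PTX4 (ENSG00000251692, chr16:1485886-1488981), a pentraxin, had 9, 19 and 9 counts in C4-2B against 2, 3 and 1 in RC4-2B, 6.0-fold lower with an interval of 2.51 to 17.4.

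For the remaining 2 genes no role is given. CCDC187 (ENSG00000260220, chr9:136249971-136306901) had 29, 27 and 23 counts in C4-2B and 0 in all 3 RC4-2B libraries, at least 8.54-fold lower against 3 counts per library. VWA5B2 (ENSG00000145198, chr3:184230429-184242329) had 16, 16 and 19 counts in C4-2B against 3, 2 and 3 in RC4-2B, a ratio of 6.20 with an interval of 2.92 to 15.1. It overlaps ALG3 on the opposite strand, which had 2035 to 2236 counts in C4-2B against 1403 to 1856 in RC4-2B, and without the strand setting the reads of this pair cannot be told apart. CCDC187 and GAL3ST1 were the 2 genes with no read in any RC4-2B library. Over all 23 genes, 16 overlap another row of the table and 11 overlap one on the opposite strand.

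The edgeR fit over all genes is given here only as an account of the 23 genes, since their selection used the same counts. Of them, 15 passed its filter on low counts and 8 (APOC1, MDGA1, PTX4, RIOX1, CYP4F8, GALNT13, PRSS22 and EPHA5) did not. Of the 15 tested, 14 were called lower at an adjusted p under 0.05, against 136 of all 15054 tested genes (0.903%), while 162 (1.08%) were called higher. DESeq2 gave an adjusted p for 13 of the 23 genes and called all 13, against 402 of 15221 genes (2.64%). Nothing about the genes is read from these shares. The reversed limits, with 3 counts or less in each C4-2B library and the same minimum in RC4-2B, were met by 6 protein-coding genes.

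Genes just outside the limits show where the line was drawn. At a C4-2B mean of 100 counts or more, 3 genes missed it by a highest RC4-2B count of 4 to 6. COL12A1, a collagen chain, had 119, 175 and 68 counts in C4-2B against 0, 0 and 4 in RC4-2B. OBSL1, a cytoskeletal adaptor, had 142, 100 and 85 in C4-2B against 3, 2 and 4 in RC4-2B. UNC5A, a netrin receptor, had 101, 87 and 132 in C4-2B against 5, 4 and 4 in RC4-2B. These 3 genes had more C4-2B reads than 22 of the 23 selected genes, so the selection holds genes with few reads as well as genes with a large decrease. A further 8 genes at a C4-2B mean of 20 to under 100 (ADRA2A, KCNJ3, ANKRD65, TRPS1, APOL3, UNC5C, TTC29 and HIST1H2BO) missed the same limit. On the other side, LMO2 had 9, 9 and 10 counts in C4-2B against 3, 1 and 0 in RC4-2B, and missed the C4-2B limit, as did PABPC5 (17, 9 and 3 against 2, 3 and 2) and SH3GL2 (13, 9 and 5 against 1, 0 and 3).

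**Figure D2:**
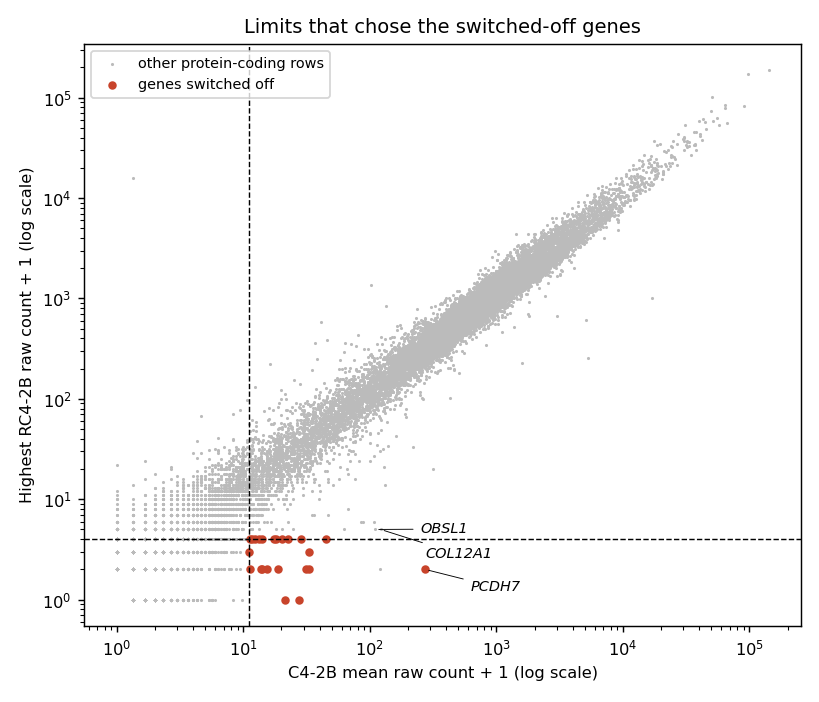
Highest raw count in the 3 RC4-2B libraries against the mean raw count in the 3 C4-2B libraries, each plus 1 on a log scale, for protein-coding genes. Dashed lines are the limits of 3 and 10 counts, red points are the 23 selected genes and grey points the others. PCDH7 lies alone at the right, COL12A1 and OBSL1 lie just above the RC4-2B limit, and the other red points crowd near the C4-2B limit.

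The 23 genes lay on 15 chromosomes, with 4 on chromosome 16 (17.4%, against 4.74% of the other protein-coding genes that met the C4-2B limits) and 3 on chromosome 19 (13.0% against 7.37%). RASAL3 and CYP4F8 are 150647 bases apart on chromosome 19, and PRSS22 and IL32 are 207127 bases apart on chromosome 16. No other pair was closer than 1.32 Mb. HBM, PTX4, PRSS22 and IL32 all lie in the first 3.08 Mb of chromosome 16, a stretch chosen after their positions were seen, where they made up 3.67% of the 109 protein-coding genes that met the C4-2B limits. The 139 other tested genes of that stretch had a median log2 fold change of -0.44. Among them edgeR called 1 lower (0.719%, against 0.903% of all tested genes) and 0 higher (against 1.08%). At an unadjusted p under 0.05, 43 were lower (30.9%, against 9.42%) and 0 higher (against 12%). DESeq2 called 7 of 141 lower (4.96%, against 2.64%) and 0 higher (against 3.28%). Without RC4-2B replicate 2 the edgeR median was -0.24. Of 142 genes in that fit, 31 were called lower (21.8%, against 6.02% of all tested genes) and 1 higher (0.704%, against 6.5%).

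To ask whether whole neighbourhoods were lower, tested genes within 500 kb of any of the 23 were compared between the lines, since the selection did not use their values. PCDH7 had no tested neighbour. Of 287 such genes near the other 22, edgeR called 3 lower (1.05%, against 0.903% of all tested genes) and 0 higher (against 1.08%), and DESeq2 called 9 lower (3.10%, against 2.64%) and 1 higher (0.345%, against 3.28%) of 290. Other settings gave lower shares further above the background. At an unadjusted p under 0.05, 49 were lower (17.1%, against 9.42% of all tested genes) and 4 higher (1.39%, against 12%). Without RC4-2B replicate 2, edgeR called 33 of 293 lower (11.3%, against 6.02%) and 4 higher (1.37%, against 6.5%), and with no filter on low counts it called 30 of 517 lower (5.80%, against 2.22%).

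KCNJ3, a potassium channel subunit 244 kb from GALNT13, had 83, 78 and 89 counts in C4-2B against 4, 5 and 5 in RC4-2B, with a log2 fold change of -4.08 (SE 0.28, adjusted p = 0.000480, edgeR). It is the only tested neighbour of GALNT13, it missed the limit of 3 counts narrowly, and it passed the threshold under every alternative fit. PDIA2, a protein disulfide isomerase gene 116 kb from HBM, had 57, 46 and 67 counts in C4-2B against 20, 10 and 12 in RC4-2B, with a log2 fold change of -1.96 (SE 0.34, adjusted p = 0.029, edgeR). MAP2, a microtubule-associated protein gene 37.9 kb from UNC80, had 719, 900 and 1136 counts in C4-2B against 388, 566 and 487 in RC4-2B, with a log2 fold change of -0.90 (SE 0.18, adjusted p = 0.048, edgeR). In none of the 3 genes did the lines overlap. The calls of PDIA2 and MAP2 were lost when any C4-2B library or RC4-2B replicate 3 was left out (edgeR adjusted p of 0.0918 to 0.166 and 0.114 to 0.190 without a C4-2B library, and 0.111 and 0.144 without RC4-2B replicate 3), and that of MAP2 also without RC4-2B replicate 1 (0.0630).

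The neighbours as a group lay slightly below 0. Their median log2 fold change was -0.20, against 0.0063 for all tested genes, and 210 of 287 (73.2%) were below 0, against 49.3% of all tested genes. Their transcripts were GC-rich, with a median GC content of 56.9% against 48.2% over all tested genes, and the 4308 tested genes at 55% GC or more had a median of -0.29 on the same scale. Without RC4-2B replicate 2 the medians were -0.10 for the neighbours and -0.11 for genes at 55% GC or more. Many of the neighbours lie at or near the end of chromosome 16 described above, so the 2 sets are partly the same genes. HBM, PTX4, PRSS22 and IL32 had 30, 33, 45 and 40 tested neighbours, some of them shared. The medians were -0.40, -0.42, -0.34 and -0.20. Near the other genes they ran from -0.35 (EPHA5) to 0.45 (ZNF711), apart from KCNJ3 near GALNT13. The parts of GC content, of RC4-2B replicate 2 and of this stretch in the shift of the neighbours were not tested.

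**Figure D3:**
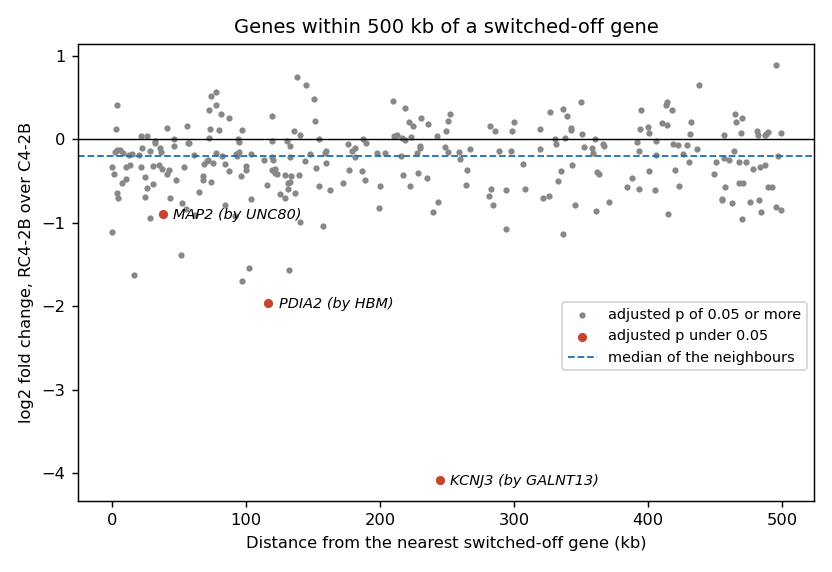
Log2 fold change (RC4-2B over C4-2B, edgeR) of tested genes within 500 kb of a switched-off gene against the distance to it in kb. Red points passed an adjusted p of 0.05, and the dashed line is the median of -0.20. KCNJ3 lies at -4.08, apart from all others, and most points lie between -1 and 0.5.

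The switched-off genes were themselves GC-rich. Their transcripts had a median GC content of 58.7% (37.1% to 66.7%), against 48.1% for the other protein-coding genes that met the C4-2B limits, and 16 of 23 were at 55% or more. VWA5B2 (66.7%) and HBM (66.2%) were the highest and ZNF711 (37.1%) the lowest. Among protein-coding genes at a C4-2B mean under 50 counts, the selection took 2.76% of 580 at 55% GC or more, 0.404% of 495 at 45% to 55% and 0.901% of 444 below 45%. RC4-2B replicate 2 moved with this, as its removal brought the median log2 fold change of tested genes at 55% GC or more from -0.29 to -0.11 and that of genes below 45% from 0.18 to 0.06. The part of the GC trend in which low genes met the limits was not tested. The gene spans were shorter, with a median of 16896 bases against 33062, while exonic lengths were similar, with medians of 5004 and 5150 bases. These lengths were not matched for C4-2B level.

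RefSeq promoters, from 250 bases before to 50 bases after the start, were found by symbol for 20 of the 23 genes and for 10083 (81.5%) of the 12374 others that met the C4-2B limits. OLIG1, RIOX1 and PRSS22 had no entry. A promoter was called CpG-rich at an observed over expected CpG ratio of 0.6 or more and a GC content of 50% or more. Of the 20, 13 (65%) were CpG-rich, against 81.5% of the others and 46.9% of all 35116 promoters, and the median ratio was 0.732 against 0.847 in the others. The others were not matched to the 23 genes for C4-2B level. The median C4-2B mean was 17 counts for the 23 genes and 568 for all protein-coding genes that met the limits. The ratios of the 20 fell into groups below 0.4 and above 0.6. The CpG-poor promoters were those of GALNT13 (0.067), CYP4F8 (0.164), IL32 (0.244), APOC1 (0.282), RASAL3 (0.285), CCDC187 (0.291) and PTX4 (0.346), and both signalling and enzyme genes were among them. Transcription factor and synapse genes with an entry lay on the CpG-rich side, from SOHLH2 (0.621), PCDH7 (0.667) and EPHA5 (0.675) to FOXF2 (0.957) and ZNF711 (0.983). The signalling gene PREX1 (0.909), the enzyme gene GAL3ST1 (0.924), SERPINH1 (0.841) and HBM (0.916) lay there too. No split by role is read from these ratios. For GALNT13, HBM, CCDC187 and MDGA1 the RefSeq start lies more than 1 kb from the start in the deposited table, so these windows may not be the start in use.

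**Figure D4:**
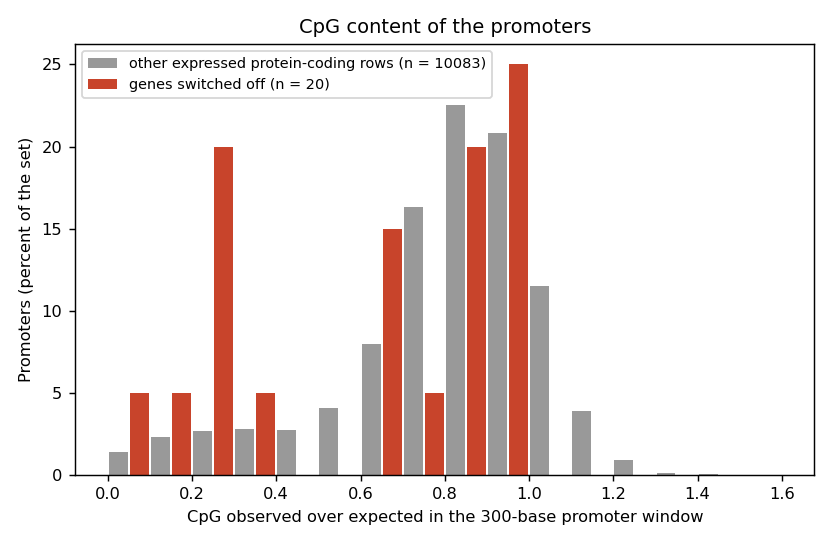
Observed over expected CpG ratio of 300-base RefSeq promoter windows, in bins of 0.1, as a percent of each set, for the 20 switched-off genes with a promoter entry (red) and 10083 other protein-coding genes that met the C4-2B limits (grey). The red bars leave a gap between 0.4 and 0.6, with 7 promoters below it and 13 above it.

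Short motifs were searched on both strands of the same windows. CCAAT was found in 7 of 20 (35%, against 36.9% of the others and 34.6% of all promoters), including those of PCDH7, FOXF2, ZNF711, GAL3ST1 and CYP4F8, and GGGCGG in 12 (60%, against 71.0% and 45%). TATAAA was found in 1, that of ZNF711 (5%, against 5.25% and 11.5%), and CACGTG in 2, those of SOHLH2 and RASAL3 (10%, against 10.4% and 7.26%). TGACGTCA was found in IL32 alone (5%, against 3.30% and 1.85%), and the forkhead motif TGTTTAC in PTX4 and HBM (10%, against 2.27% and 3.42%). The full palindromic androgen response element was in none of the 20 windows and in none of the 10083 others. None of these shares is more than a description of letters in the windows.

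Genes that write, read or erase silencing marks were read in both lines. Of a list of 30 (DNA methyltransferases, TET enzymes, Polycomb subunits, histone methyltransferases and deacetylases, and readers), all 30 were tested, edgeR called 1 lower (3.33%, against 0.903% of all tested genes) and 0 higher, and the median log2 fold change was 0.014 against 0.0063 for all tested genes. At an unadjusted p under 0.05 there were 5 lower (16.7%, against 9.42%) and 3 higher (10%, against 12%), and DESeq2 called 2 lower (6.67%, against 2.64%) and 0 higher. Without RC4-2B replicate 2, edgeR called 4 lower (13.3%, against 6.02%) and 3 higher (10%, against 6.5%). MBD1, a reader of methylated CpG, had 1135, 1201 and 1118 counts in C4-2B against 710, 665 and 731 in RC4-2B, with a log2 fold change of -0.67 (SE 0.11, adjusted p = 0.028, edgeR), and the lines did not overlap. This call was lost without any C4-2B library (edgeR adjusted p of 0.128 to 0.180) and without RC4-2B replicate 3 (0.103). DNMT1, the maintenance methyltransferase, measured 351 ± 14.5 CPM in the parental line and 319 ± 50.3 CPM in RC4-2B (n = 3 each). EZH2, the catalytic Polycomb subunit, measured 85.1 ± 6.50 and 77.7 ± 3.29 CPM. Neither passed the threshold (edgeR adjusted p of 0.517 and 0.479). Other genes of the list moved further without passing it. DNMT3A had 351, 383 and 418 counts in C4-2B against 224, 198 and 285 in RC4-2B (log2 fold change -0.66, edgeR adjusted p = 0.092). SUZ12 and JARID2 were higher in RC4-2B, with log2 fold changes of 0.59 and 0.49 (edgeR adjusted p of 0.158 and 0.111).

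Relatives and partners of the switched-off genes were 83 genes taken by family or complex. Of the 46 tested, edgeR called 0 lower and 0 higher, against 0.903% and 1.08% of all tested genes. At such shares, 0 calls among 46 genes says little. At an unadjusted p under 0.05, 5 were lower and 9 higher (against 9.42% and 12% of all tested genes). DESeq2 called 2 lower and 4 higher (against 2.64% and 3.28%). The median log2 fold change was -0.028, with a range from -1.61 (PRSS53) to 1.16 (VWA5A). Some partners were lower with no overlap of the lines. PRSS27 had 81, 80 and 86 counts in C4-2B against 39, 12 and 29 in RC4-2B (edgeR adjusted p = 0.075). NPTXR had 386, 408 and 418 against 195, 148 and 261 (0.062). In the other direction, VWA5A had 21, 32 and 35 against 56, 76 and 60 (0.062). A further 22 of the 83 had 3 counts or less in every library of both lines. These included NALCN, the channel that UNC80 serves, with at most 2 counts, and FOXF1 with 0, so UNC80 and FOXF2 were read in C4-2B without them. UNC79, the other large subunit of that channel, had 29, 15 and 33 counts in C4-2B against 6, 30 and 21 in RC4-2B, and the lines overlapped.

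PCDH1, the delta-protocadherin read most, had 616, 600 and 590 counts in C4-2B against 339, 346 and 521 in RC4-2B, with a log2 fold change of -0.54 that did not pass the threshold (edgeR adjusted p = 0.152). EPHA3, another ephrin-A receptor, had 832, 1186 and 1316 counts in C4-2B against 1279, 1753 and 1464 in RC4-2B (edgeR adjusted p = 0.174), so EPHA5 was a minor member of a family that both lines expressed. EPHA7 had 3, 11 and 9 counts in C4-2B against 1, 0 and 0 in RC4-2B, and was too low to be tested. HBQ1, the theta-globin gene near HBM, had 337, 275 and 254 counts in C4-2B against 277, 143 and 256 in RC4-2B, whereas HBA1 had 6, 6 and 1 against 0, 0 and 0.

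The APOE cluster around APOC1 was almost unread, with at most 1 count for APOE and 0 for APOC2 and APOC4. CYP4F11, in the gene cluster of CYP4F8, had 105, 149 and 167 counts in C4-2B against 157, 140 and 156 in RC4-2B. Listed genes that work beside SERPINH1 in collagen folding were read in both lines, at levels that differed widely. The highest, P4HB, had 13988 to 14609 counts in C4-2B against 16940 to 21633 in RC4-2B (edgeR adjusted p = 0.066). The lowest, PLOD2, had 22, 27 and 36 counts in C4-2B against 44, 71 and 17 in RC4-2B. For GAL3ST1, UGT8, which makes its lipid substrate, had 578, 577 and 670 counts in C4-2B against 658, 1213 and 777 in RC4-2B (edgeR adjusted p = 0.167). PREX2 and ZFX, the relatives of PREX1 and ZNF711, were read in every library of both lines, at 44 to 86 and 709 to 976 counts.

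By gene family, from 17 families taken by symbol, the switched-off genes fell in 5 different ones. The 94 cadherin and protocadherin genes held PCDH7, the 76 axon guidance genes EPHA5 and the 515 ZNF genes ZNF711. The 78 UGT and CYP genes held CYP4F8 and the 34 serpin genes SERPINH1, and the other 12 families held none. Of the genes that met the C4-2B limits, this was, in the same order, 4.76% of 21, 2% of 50, 0.228% of 438, 4% of 25 and 12.5% of 8. The share over all protein-coding genes that met them was 0.185%, and each family share rests on 1 gene. Among the other tested genes of these families, edgeR called 0 lower and 1 higher of 22 cadherins, 4 lower (8.16%) and 3 higher (6.12%) of 49 axon guidance genes, and 1 lower (0.225%) and 7 higher (1.57%) of 445 ZNF genes, against 0.903% lower and 1.08% higher of all tested genes. It called 0 lower and 0 higher of 25 UGT and CYP genes, and 0 lower and 1 higher of 7 serpins.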

How the data were processed

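RNAseq libraries of C4-2B and RC4-2B, 3 of each, were analysed. Reads had been aligned by the authors with STAR (GRCh38). They deposited whole-number read counts per Ensembl gene, without normalization, and FPKM values, which are the counts divided by gene length and a library total. Annotation release, counting program and strand setting are not given in the sources used here. Columns were matched to samples by the names in the labels.

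The 23 genes and the gene lists were chosen with earlier results of these data known, the partners after the 23 genes were known, by family or complex and not by how they moved. All 23 genes are named. Also named are genes just outside the limits, neighbours within 500 kb with an adjusted p under 0.05, genes of the 17 fixed families and examples of the lists. Examples of partners and of the silencing list were chosen after their values were seen. The 5 promoters printed were those whose RefSeq start lay less than 100 bases upstream of, or at, the start in the table.

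The counts were fitted by edgeR 4.0.16 under R 4.3.3 (TMM, filterByExpr with a minimum of 10 counts, glmQLFit, glmQLFTest, cell line as the only term, two-sided, Benjamini-Hochberg adjustment over 15054 genes, threshold 0.05). DESeq2 1.42.0, the tool of the paper's methods, was an alternative, with RLE scaling, no filter, a block for replicate number, leaving out each library, other windows and other limits. Ratios are summed counts over TMM-scaled library sizes, with exact 95% conditional intervals (scipy 1.17.1). In a test on simulated data for this comparison, 190 of 200 genes lowered 4-fold among 14828 were recovered, with 5 other genes called lower. The lowered genes were drawn only from those with an expected count over 20, whereas 14 of the switched-off genes had a C4-2B mean under 20. Recovery was not split by count level either, so it cannot be carried over to genes as low as most of the switched-off genes. Their median C4-2B mean was 17 counts, and 8 of them were not tested by edgeR.

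Libraries of 1 line differed by more than sampling noise (chi-square per gene 3.17 to 58.7) and were each kept as 1 replicate. Labels call them biological replicates, with no word on separate cultures, so p-values measure the spread between these libraries. Transcript GC is that of the longest GENCODE 44 transcript. Promoters are RefSeq, GRCh38.p14.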

Additional observations from a re-analysis of the deposited data

How the results depend on the processing

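The number of switched-off genes depended on the limits. It was 23 as reported, 2 with a limit of 0 counts in RC4-2B, 46 with 5 or less, 9 with a C4-2B mean of 20 or more and 14 with the limits applied after TMM scaling, the 2, 9 and 14 all among the 23. Leaving out a library gave 23 to 39 genes. Without C4-2B replicate 1, CYP4F8 and GALNT13 missed the limits, without replicate 2 PTX4, and without replicate 3 EPHA5 and PRSS22. Leaving out RC4-2B replicate 1 gave the 39, and leaving out RC4-2B replicate 2 or 3 gave 31 and 32. In each of these settings fewer RC4-2B libraries had to be low, and why replicate 1 gave the most was not tested. The median fold against the floor was 5.50, and 16.5 with a floor of 1 count, a change set by the floor itself.

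Genes called lower numbered 136 by edgeR, 402 by DESeq2, 646 without a filter and 31 to 925 with a library left out, and 14 of the 23 were called lower, 22 without a filter and 2 to 20 with a library left out. Neighbours called lower numbered 3, with 9 by DESeq2, 30 without a filter, 1 within 100 kb and 1 to 33 with a library left out. The highest numbers, 925, 20 and 33, came without RC4-2B replicate 2, and the lowest numbers of all genes and of the 23, 31 and 2, without C4-2B replicate 1. The cause was not tested.

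With the replicate number as a block, 74 genes, 7 of the 23 and 1 neighbour (KCNJ3) were called lower, and PDIA2, MAP2 and MBD1 lost their calls (edgeR adjusted p of 0.0539, 0.0512 and 0.0630). Same-numbered libraries deviated together with correlations of 0.42, 0.24 and -0.096 over 8424 genes, so the numbers were not taken to pair the samples. RLE scaling and all gene biotypes left these counts within 1.5 times of those reported. At this depth 3 counts are 0.170 to 0.188 CPM, so the limit of 3 counts cannot separate absence from a level below that.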

Other observations

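Outside the protein-coding genes, 4 of 2562 rows of other biotypes that met the C4-2B limits (0.156%) met the limits of the switched-off genes too. The antisense gene AC007743.1 (chr2:56173534-56185770) had 35, 45 and 26 counts in C4-2B against 2, 1 and 0 in RC4-2B. BX276092.5, a transcribed pseudogene on chromosome X (chrX:71760764-71763075), had 17, 15 and 16 against 3, 0 and 0. The remaining rows are neighbours on chromosome 2. RHOQP3 (chr2:130212870-130213490) had 13, 23 and 10 counts in C4-2B against 2, 2 and 2 in RC4-2B, and AC018804.1 (chr2:130202312-130212628), on the opposite strand, had 18, 9 and 4 against 1, 2 and 2. Both are pseudogenes, and their reads can be shared with the genes they were copied from.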
